A study of Mus musculus with 4 samples.

Results

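The expression of 10 genes of endothelial junctions and endothelial identity was examined in cultured mouse periosteal cells sorted by PDGFRα reporter activity. The genes were taken by symbol from a table of 45802 gene symbols, and all 10 were listed: *Cdh5*, *Pecam1*, *Emcn*, *Tie1*, *Tek*, *Egfl7*, *Cd93*, *Vwf*, *Erg* and *Fli1*. Of these, 9 had a value in all 4 libraries, as did 14415 genes of the table, and *Tie1* had a value in 3 libraries. The cells came from the hindlimb periosteum of male Pdgfrα-mTmG mice 9 to 10 weeks old, 14 days after the last of 5 daily doses of tamoxifen (150 mg/kg). In these animals the *Pdgfra* promoter drives an inducible Cre, so that tamoxifen turns membrane tdTomato into membrane GFP in cells where that promoter is active. PDGFRα reporter+ cells (mGFP+) and PDGFRα reporter- cells (mTdtomato+) were both gated as CD31-, CD45- and Ter119- after 1 passage in medium with 10 ng/mL bFGF. There were 2 RNA-seq libraries per population, made from total RNA of cells that the sample labels give as pooled from 3 to 6 mice; the study's methods give another number. Both populations thus carry the same alleles, had the same tamoxifen and differ in the fluorescent protein at the time of sorting, which records past promoter activity.

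Endothelial cells line blood and lymphatic vessels and hold to one another through adherens junctions built on VE-cadherin, and through PECAM-1 (CD31), a homophilic adhesion molecule of the immunoglobulin family. Their identity is kept by transcription factors of the ETS family such as ERG and FLI1, and their quiescence by angiopoietin signaling through the receptors TIE1 and TEK (TIE2). In bone, endomucin together with CD31 marks the capillaries coupled to bone formation. Several of these genes are also read in other cells: *Pecam1*, *Fli1* and *Cd93* in leukocytes, *Vwf* in megakaryocytes, and *Erg* in some mesenchymal cells.

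The values were log2 expression values, quantile normalized by the authors, so that the quartiles were the same in each library (lower quartile -1.47, median 1.48). The lowest value of every library was -10.07 and the highest 11.73, and blanks stand for no detected signal. The linear unit is not stated, so each gene is compared with itself between libraries and not with other genes, and the depth of the libraries and their counting error are unknown. In the table the headings carry the numbers 2 and 3 for either population, whereas the sample labels number replicates 1 and 2, and the heading numbers are used here as names. Across genes, which are not independent replicates, Pearson correlations were higher between same-numbered libraries (0.984 and 0.982) than within a population (0.952 and 0.957), so that the difference between populations is given over all libraries and within each number. The stromal genes of the sorted cells had values in every library, with *Pdgfra*, the gene of the reporter's promoter, between 7.44 and 7.87 and the collagen gene *Col1a1* between 7.44 and 7.85.

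*Cdh5*, *Pecam1*, *Emcn* and *Tie1* had lower values in every PDGFRα reporter+ library with a signal than in both PDGFRα reporter- libraries, whereas the other 6 genes overlapped between the populations. The geometric means of *Cdh5*, *Pecam1* and *Emcn* differed between 9.10-fold and 19.1-fold. These sizes rest on low values: without 1 library the log2 fold changes ran from -5.08 to -3.43, -3.62 to -2.75 and -4.48 to -2.40, and with a pseudocount of 1 added to the linear values they were -0.48, -0.38 and -0.36. They did not pass limma with Benjamini-Hochberg adjustment, which called 0 of 14415 genes (0%) at the threshold of 0.05, while 131 genes lay under 0.05 before adjustment. Among the 9 fully valued members of the panel, 3 were lower without overlap, compared with 8.1% of all genes tested, and 0 were higher without overlap, compared with 7.59%. In bulk RNA, fewer cells of a type and less RNA per cell cannot be told apart.

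**Figure D1:**
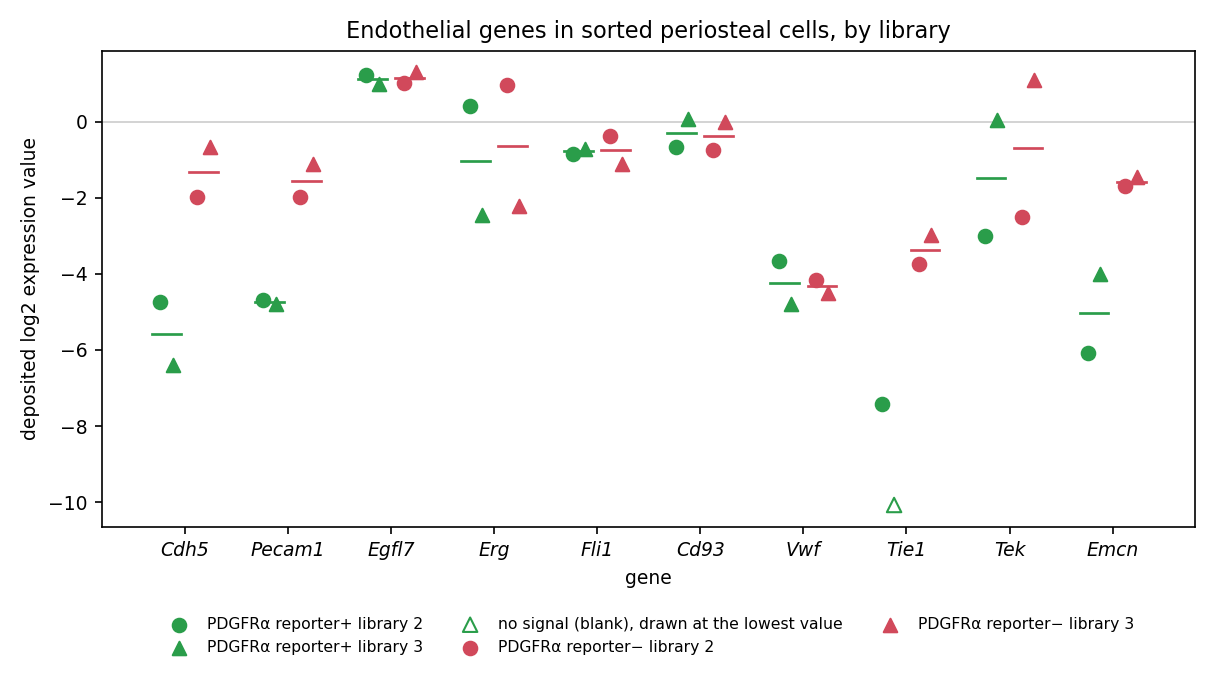
Deposited log2 expression value of the 10 endothelial genes in each library; circles are libraries numbered 2, triangles libraries numbered 3, and short lines the mean of a population's 2 libraries. The open triangle of *Tie1* is a blank, drawn at the lowest value of the table (-10.07), and *Cdh5*, *Pecam1* and *Emcn* show no overlap between the populations.

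*Cdh5* (chromosome 8, 104101625 to 104144511, plus strand, GRCm38) encodes VE-cadherin, the cadherin of endothelial adherens junctions. Its log2 values were -4.75 and -6.40 in PDGFRα reporter+ libraries 2 and 3, and -1.97 and -0.67 in PDGFRα reporter- libraries 2 and 3. Both PDGFRα reporter+ libraries lay below both PDGFRα reporter- libraries, and the nearest of them differed by -2.78. The populations lay further apart in number 3, as the difference was -2.78 among libraries numbered 2 and -5.73 among libraries numbered 3. Its means were -5.58 ± 1.16 and -1.32 ± 0.93 (SD, n = 2 libraries each), a log2 fold change of -4.26 with a standard error of 0.87, an unadjusted p of 0.00607 and an adjusted p of 1 in limma. Among 14415 genes it ranked 2 from the most negative. The gene overlaps *Gm29682*, an antisense gene that was blank in all libraries.

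*Pecam1* (chromosome 11, 106654217 to 106750628, minus strand) encodes CD31, the antigen on which endothelial cells were gated out of both populations. The PDGFRα reporter+ libraries were close to each other, at -4.68 and -4.79, and the PDGFRα reporter- libraries were at -1.99 and -1.11. The populations differed by -2.70 at their nearest, whereas libraries of the same population differed by 0.11 and 0.87. The difference was -2.70 within number 2 and -3.67 within number 3, and the log2 fold change was -3.19 (SE 0.57, n = 2 per population; limma, unadjusted p 0.00369, adjusted p 1). Among genes with a value, *Pecam1* stood between the 10.3 and 10.8 percentiles of the PDGFRα reporter+ libraries and at the 22.5 and 26.9 percentiles of the PDGFRα reporter- libraries. Transcript of the antigen used for the gate was thus listed in all 4 libraries.

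*Emcn* (chromosome 3, 137341067 to 137432185, plus strand) encodes endomucin, a sialomucin of capillary and venous endothelium. Its log2 values were -6.07 and -3.99 in the PDGFRα reporter+ libraries and -1.71 and -1.47 in the PDGFRα reporter- libraries. Its PDGFRα reporter- libraries differed by 0.24, whereas its PDGFRα reporter+ libraries differed by 2.07. The difference between the populations was larger within number 2 (-4.36) than within number 3 (-2.52), the reverse of *Cdh5*. The log2 fold change of -3.44 (SE 0.86, n = 2 per population) had an unadjusted p of 0.0129 and an adjusted p of 1 in limma. *Cdh5*, *Emcn* and *Pecam1* ranked 2, 5 and 6 among the 14415 log2 fold changes, counted from the most negative.

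*Tie1* (chromosome 4, 118471191 to 118490061, minus strand) encodes an orphan receptor tyrosine kinase that modulates TEK. It was blank in PDGFRα reporter+ library 3 and had a log2 value of -7.41 in PDGFRα reporter+ library 2, at the 1.41 percentile of that library. In the PDGFRα reporter- libraries it was at -3.74 and -2.99, at the 14.7 and 18.0 percentiles. The difference was -3.67 among libraries numbered 2, and no difference can be given for number 3. With 3 values it was not tested.

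All of *Cdh5*, *Pecam1* and *Emcn* were lower by at least 1 on the log2 scale within both numbers. This was the case for 0.673% of the 14415 genes and for 2.17% of the 4191 genes with a mean log2 value below 0, to which all 3 belong. Their unadjusted p-values from limma were under 0.05, compared with 0.458% of all genes that were lower with such a p. Centering each library on the stromal genes, a list in which *Lum* and *Dcn* were themselves higher in PDGFRα reporter+ cells, lowered the log2 fold changes of genes in general, with the median of all genes moving from -0.004 to -0.60 and 62.2% of all genes lower without overlap. On that scale the values for *Cdh5*, *Pecam1* and *Emcn* were -4.85, -3.78 and -4.04 and had adjusted p-values of 0.00459, 0.0462 and 0.0284 in limma.

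**Figure D2:**
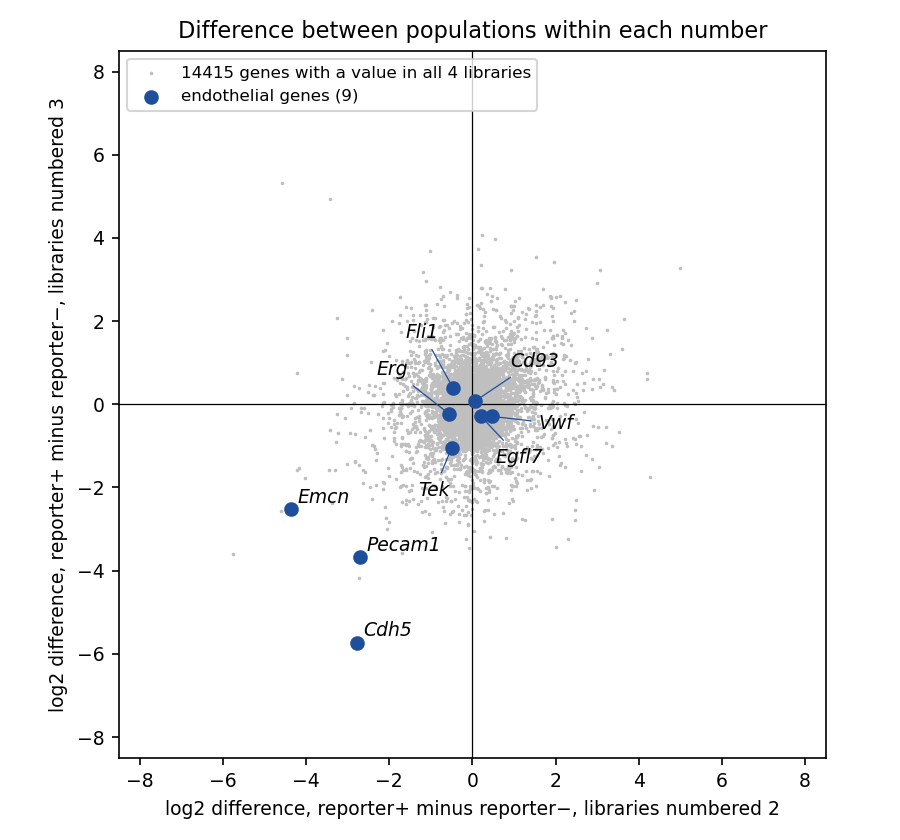
Log2 difference between the populations (PDGFRα reporter+ minus PDGFRα reporter-) within libraries numbered 2 (x axis) and numbered 3 (y axis); gray points are the 14415 genes without a blank and blue points the 9 endothelial genes among them. *Cdh5*, *Pecam1* and *Emcn* lie at or below -2.52 on both axes, and the other 6 lie between -1.05 and 0.48.

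*Tek* (chromosome 4, 94739289 to 94874976, plus strand), the angiopoietin receptor TIE2, differed more between the library numbers than between the populations. Its log2 values were -3.00 and 0.05 in PDGFRα reporter+ libraries 2 and 3, and -2.50 and 1.10 in PDGFRα reporter- libraries 2 and 3. Libraries numbered 3 were higher by 3.05 in PDGFRα reporter+ cells and by 3.60 in PDGFRα reporter- cells, and 1.62% of all genes were higher there by at least 2 in both populations. Within the numbers the PDGFRα reporter+ minus PDGFRα reporter- difference of *Tek* was -0.50 and -1.05. Its log2 fold change of -0.77 (SE 1.62, n = 2 per population; limma, adjusted p 1) was smaller than the spread between libraries.

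The values of *Erg* (chromosome 16, 95359169 to 95586593, minus strand), a transcription factor needed for endothelial identity, went the other way between the numbers. They were 0.40 and -2.46 in PDGFRα reporter+ libraries 2 and 3 and 0.96 and -2.23 in PDGFRα reporter- libraries 2 and 3. Libraries numbered 3 were lower by 2.86 and 3.19, and 0.888% of all genes were lower there by at least 2 in both populations. The log2 fold change between the populations was -0.40 (SE 1.47), with -0.56 and -0.23 within the numbers. The related ETS factor *Fli1* (chromosome 9, 32422204 to 32542861, minus strand) did not share this pattern, with -0.85 and -0.71 in PDGFRα reporter+ cells and -0.38 and -1.11 in PDGFRα reporter- cells. Its populations overlapped, and its differences within the numbers had opposite signs (-0.47 and 0.39).

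*Egfl7* (chromosome 2, 26580014 to 26593120, plus strand), a secreted protein of vessel formation, had the most even values of the 10 genes. They were 1.22 and 1.00 in PDGFRα reporter+ libraries and 1.01 and 1.29 in PDGFRα reporter- libraries, so that the populations differed by -0.04 (SE 0.24). *Egfl7* was the only one of the 10 with a value above 0 in every library. The gene holds the microRNA genes *Mir126a* and *Mir126b*, which were blank in all libraries, and its end overlaps *Agpat2* on the opposite strand, whose log2 fold change was -0.009, and whether the counting used strand is not stated. *Cd93* (chromosome 2, 148436640 to 148443563, minus strand), a C-type lectin-like receptor of endothelial and myeloid cells, had values of -0.68 and 0.06 in PDGFRα reporter+ cells and -0.75 and -0.02 in PDGFRα reporter- cells. Its differences of 0.07 and 0.08 within the numbers were smaller than the difference of 0.73 and 0.72 between the numbers. *Vwf* (chromosome 6, 125546774 to 125686679, plus strand), von Willebrand factor, stored in endothelial cells and platelets, stood between the 10.3 and 15.0 percentiles in all libraries, at -3.67 and -4.79 in PDGFRα reporter+ cells and -4.15 and -4.50 in PDGFRα reporter- cells. The difference of 0.09 (SE 0.69) had opposite signs within the numbers (0.48 and -0.29). In limma without a block, none of these 6 genes had an unadjusted p under 0.05.

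Promoter sequences were available from RefSeq on GRCm38.p6 for 5 of the 10 genes (*Emcn*, *Tek*, *Tie1*, *Egfl7* and *Erg*). Those of *Emcn*, lower in PDGFRα reporter+ cells, and *Tek*, which overlapped, are shown from 250 to 21 bases before the start of transcription, 5′ to 3′, as ERG and FLI1 bind ETS motifs. Capitals mark the letters GGAAG of the ETS motif or, on the other strand, CTTCC. The *Emcn* window is chr3:137340828-137341057 and the *Tek* window chr4:94739039-94739268, both on the plus strand.
Emcn: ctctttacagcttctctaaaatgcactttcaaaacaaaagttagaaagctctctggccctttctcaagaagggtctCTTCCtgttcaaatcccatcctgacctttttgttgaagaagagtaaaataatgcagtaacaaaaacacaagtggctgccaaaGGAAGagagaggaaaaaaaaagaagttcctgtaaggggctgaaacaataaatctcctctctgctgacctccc
Tek: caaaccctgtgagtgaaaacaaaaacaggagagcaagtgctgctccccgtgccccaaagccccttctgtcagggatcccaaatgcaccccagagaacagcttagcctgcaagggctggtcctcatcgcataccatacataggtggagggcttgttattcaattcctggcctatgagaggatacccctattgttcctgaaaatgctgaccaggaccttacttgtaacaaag
The *Emcn* window held GGAAG or CTTCC at 2 places, 174 to 170 and 92 to 88 bases before the start. The *Tek* window held them at 0 places. Only these letters were searched. The shorter GGAA or TTCC stands unmarked in both windows, so 0 matches do not mean that an ETS site is absent. Of the genes whose values overlapped, *Egfl7* had 4, 2 and 0 matches in its 3 windows and *Erg* 0, 1 and 1. The window of *Tie1*, which was lower, held 5 matches and is not shown because it overlaps the annotated gene. Either strand of the motif was present in 60.3% of 32851 promoter windows of 230 bases in the same table. The letters ACAAT of the SOX motif, searched on both strands, were found 1 time in each of the 2 windows and in 26.4% of all windows. These matches describe the letters and show no binding.

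The catenins that tie cadherins to actin differed little between the populations, by at most 0.25 in log2 fold change. *Ctnnb1* (β-catenin) had values of 6.60 to 6.84 in the 4 libraries and a log2 fold change of 0.02, *Ctnna1* (α-catenin) -0.11, and both overlapped. *Jup* (plakoglobin) was lower without overlap, at 1.17 and 1.12 compared with 1.42 and 1.37, as was *Ctnnd1* (p120-catenin), at 3.93 and 4.02 compared with 4.06 and 4.06. Of 12 catenin and junction genes, 11 had a value in all libraries, 4 of these were lower and 0 higher without overlap, beside 8.1% and 7.59% of all genes, and the median log2 fold change was -0.11, beside -0.004. The other two of the 4 were *Jam2* (-0.29) and *F11r* (JAM-A), at -5.82 and -4.72 in the PDGFRα reporter+ libraries and -3.69 and -3.90 in the PDGFRα reporter- libraries, with -1.47 as log2 fold change (SE 0.69), the most negative of the list. The endothelial claudin *Cldn5* was blank in PDGFRα reporter+ library 2 and was at -4.91 in library 3, compared with -4.28 and -4.30 in PDGFRα reporter- cells. Of 8 other cadherins, 7 had a value in all libraries and 0 were lower or higher without overlap, beside 8.1% and 7.59% of all genes. The most negative of them was P-cadherin (*Cdh3*), with differences of -2.64 and -1.90 within the numbers and a log2 fold change of -2.27 (SE 1.39; limma, unadjusted p 0.171, adjusted p 1). The osteoblast cadherin *Cdh11* was at 5.43 and 6.52 in PDGFRα reporter+ cells and 5.05 and 6.45 in PDGFRα reporter- cells, and N-cadherin (*Cdh2*) had a log2 fold change of -0.09.

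Of the angiopoietin ligands of TEK, *Angpt2*, which endothelial cells themselves release, was lower in PDGFRα reporter+ cells, at -3.67 and -2.87 compared with -1.34 and -0.92 (log2 fold change -2.14, SE 0.53; limma, unadjusted p 0.0121, adjusted p 1). Its differences within the numbers were -2.32 and -1.95. *Angpt1*, the agonist made by perivascular and mesenchymal cells, had values of 2.64 to 3.60 in the 4 libraries and a log2 fold change of 0.34. *Ptprb*, the endothelial phosphatase that acts on TEK and on the VE-cadherin complex, was at -9.26 and blank in PDGFRα reporter+ cells and at -5.36 and -5.00 in PDGFRα reporter- cells, a pattern like that of *Tie1*.

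A further 30 genes of endothelial cells, 11 transcription factors and 19 surface or secreted proteins, were divided. Of 23 fully valued genes, 14 had log2 fold changes below 0 and 9 above, where 49.1% of all genes lay above 0. Beside a median of -0.004 for all genes, that of the 23 was -0.09. Omitting a single library moved this median to between -0.15 and 0.05, and it was above 0 without PDGFRα reporter+ library 3. Without overlap, 5 were lower and 2 higher, beside 8.1% and 7.59% of all genes. Lower by at least 1 within both numbers, as were 0.673% of all genes and 2.17% of those with a mean below 0, were *Kdr* (VEGF receptor 2; log2 fold change -1.82, SE 0.67), *Mmrn2* (multimerin 2, a ligand of CD93; -2.01, SE 0.65) and *Nos3* (endothelial nitric oxide synthase; -1.998, SE 0.68). Higher by at least 1 within both, as were 0.95% of all genes and 2.91% of those with a mean below 0, were *Gja4* (connexin 37; 1.54, SE 0.92) and *Lyl1* (a helix-loop-helix factor of endothelial and blood cells; 1.27, SE 0.77). The unadjusted p was 0.0469 for *Kdr*, 0.0319 for *Mmrn2* and 0.0375 for *Nos3*, and in limma 0 of these 23 passed the adjusted threshold. Another 6 genes were blank in some libraries, and in 5 of them the blanks were more frequent in PDGFRα reporter+ cells. Among all 2327 partly blank genes of the table this was so for 38.8%, and the reverse for 39.7%. *Robo4* and *Sox17* were blank in both PDGFRα reporter+ libraries and had values of -4.81 and -3.12 and of -7.88 and -7.88 in PDGFRα reporter- cells. *Flt1*, *Icam2* and *Sox18* were blank in PDGFRα reporter+ library 2 and had PDGFRα reporter+ minus PDGFRα reporter- differences of -1.94, -3.06 and -1.90 among libraries numbered 3. *Gja5* (connexin 40) was blank in both libraries numbered 2 and went the other way among libraries numbered 3, with a difference of 2.01. *Etv2* was blank throughout.

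Several other genes of these lists varied between the numbers. *Podxl* (podocalyxin) had a log2 fold change of -1.35 that came from number 3 (-0.04 and -2.67 within the numbers), as had *Ackr1* (-0.93, with -0.19 and -1.67), and both were lower without overlap. *Plvap*, of fenestrated endothelium, had differences of opposite sign (1.04 and -1.85). The transcription factors *Tal1* (0.97, with 1.63 and 0.31) and *Sox7* (0.72, with 0.26 and 1.18) were higher within both numbers, *Tal1* without overlap. *Eng* (endoglin) was between 3.39 and 3.61, *S1pr1* between 3.94 and 4.99 (log2 fold change 0.31), and the ETS factors *Ets1* and *Elk3* had log2 fold changes of -0.09 and -0.05. Of 6 lymphatic and sinusoidal genes, 5 had a value in all libraries, 0 of them without overlap (beside 8.1% lower and 7.59% higher of all genes), with log2 fold changes from -0.51 (*Lyve1*) to 0.57 (*Stab1*).

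**Figure D3:**
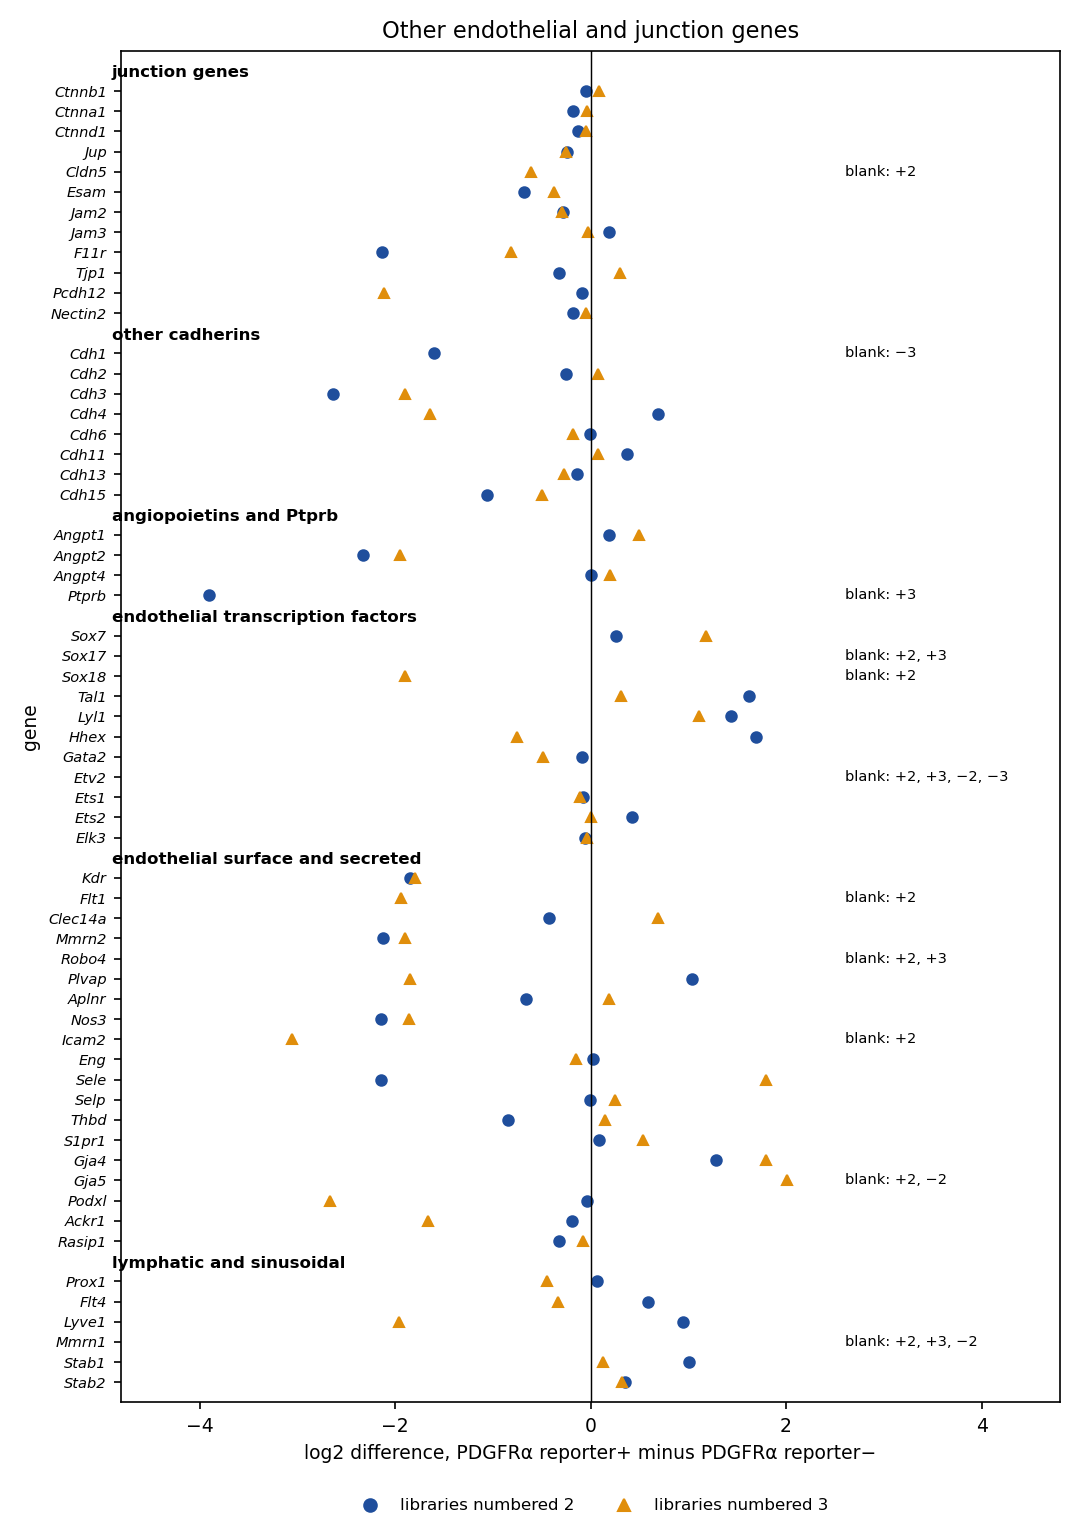
Log2 difference between the populations (PDGFRα reporter+ minus PDGFRα reporter-) for genes of 6 lists of junction and endothelial genes; circles are libraries numbered 2 and triangles libraries numbered 3, and the text at the right names the libraries in which a gene was blank. *Kdr*, *Mmrn2*, *Nos3* and *Angpt2* lie at or left of -1.80 in both, and *Ctnnb1*, *Ctnna1* and *Ctnnd1* lie between -0.18 and 0.09.

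By their pattern over the 4 libraries, the genes nearest to *Cdh5* were *Edn1*, *Pecam1*, *Mycn*, *Slc1a7* and *Myh11*, and those nearest to *Pecam1* were *Edn1*, *Slc1a7*, *Sh3tc2*, *Myh11* and *Mycn*. The measure was the Euclidean distance between log2 values centered on each gene's own mean, over 4 libraries. The values were not scaled, so genes with similarly large differences between the populations lie near one another by construction. *Edn1*, *Pecam1*, *Mycn* and *Slc1a7* themselves ranked 4, 6, 11 and 12 from the most negative log2 fold change. *Edn1*, the peptide endothelin 1 released by endothelial cells, was at a distance of 1.503 from *Cdh5* and 0.60 from *Pecam1*. Its values were -6.60 and -6.47 in PDGFRα reporter+ cells and -3.87 and -2.28 in PDGFRα reporter- cells. *Myh11*, the myosin heavy chain of smooth muscle, was at distances of 2.19 and 0.94.

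Markers of other cells also had different values in the populations, in both directions. In limma without a block, 0 of the macrophage, pericyte and smooth muscle, megakaryocyte and stromal genes passed the adjusted threshold. Before adjustment, 4 of 10, 2 of 9, 1 of 5 and 2 of 8 of them lay under 0.05, beside 131 of all 14415 genes. With the library number as a block, limma gave adjusted p-values under 0.05 for *C1qb* (0.0437), *Pf4* (0.0345) and *Lum* (0.0121). Without a variance trend, the block called 0 genes of the table. All 10 macrophage genes had a log2 fold change above 0, beside 49.1% of all genes, and 7 of them were higher without overlap, beside 7.59%. A summed level adds linear values within a list and rests mostly on its highest genes, and for macrophage genes the log2 of their summed linear values was 7.86 and 8.07 in PDGFRα reporter+ libraries and 6.53 and 7.44 in PDGFRα reporter- libraries. Of 10 pericyte and smooth muscle genes, 9 had a value in all libraries, 3 were lower and 2 higher without overlap (8.1% and 7.59% of all genes), with *Myh11* (log2 fold change -2.39) the lowest and *Kcnj8* (0.94) the highest; their summed level was 5.48 and 5.71 compared with 5.83 and 5.98. Of 7 platelet and megakaryocyte genes, *Gp1ba* and *Gp9* were blank throughout and 5 had a value in all libraries, 3 with log2 fold changes above 0 and 2 below (median 0.09). They ranged from -0.58 (*Itgb3*, lower within both numbers) to 1.86 (*Pf4*, higher without overlap), with summed levels of 2.84 and 2.31 compared with 2.63 and 2.14. Of 6 neutrophil genes none had a value in all libraries, the summed levels were -3.92 and 1.45 compared with -4.24 and -0.94, and *S100a9* was blank throughout. Of the erythroid genes, *Hbb-bs*, *Alas2* and *Slc4a1* were blank throughout and *Hba-a1* had a value in PDGFRα reporter+ library 2 alone. The 8 fibroblast and stromal genes had summed levels of 10.27 and 10.23 compared with 10.25 and 9.79, with *Lum* (1.83) and *Dcn* (1.39) higher without overlap. The matrix gene *Postn* was lower within both numbers (log2 fold change -1.14), 5 of the 8 had log2 fold changes below 0, and the median was -0.09. The part of these other cells in the endothelial values was not tested.

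**Figure D4:**
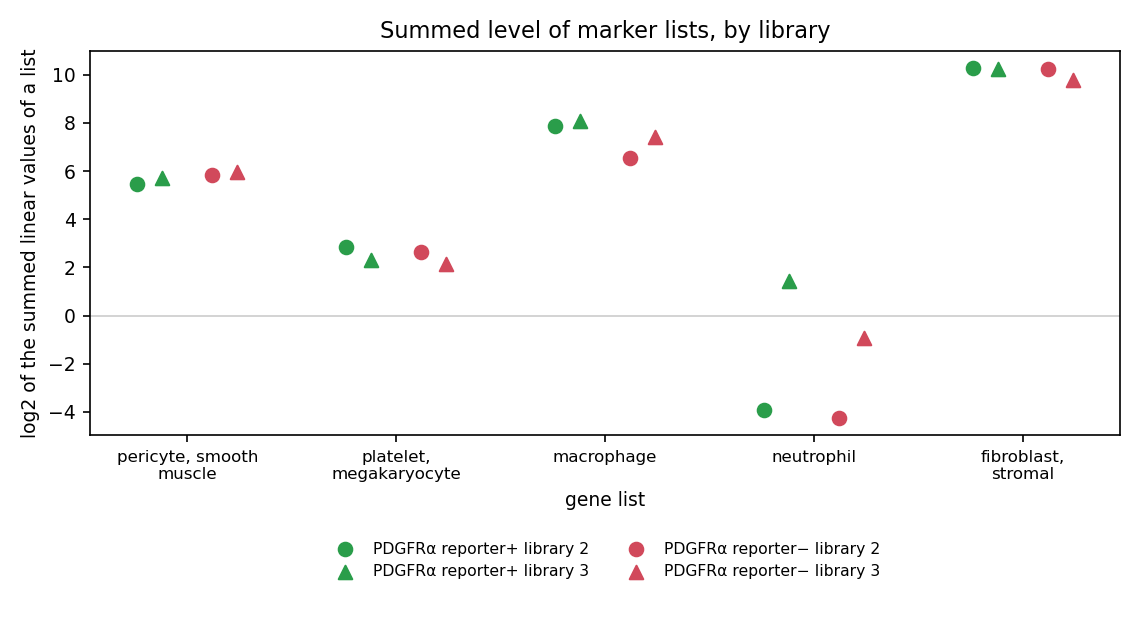
Log2 of the summed linear values of 5 marker lists in each library; circles are libraries numbered 2 and triangles libraries numbered 3. The macrophage list is higher in both PDGFRα reporter+ libraries (7.86 and 8.07) than in the PDGFRα reporter- libraries (6.53 and 7.44), and the pericyte and smooth muscle list is lower (5.48 and 5.71 compared with 5.83 and 5.98).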

How the data were processed

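RNA-seq of 4 libraries used a stranded, paired-end Illumina protocol. Per the labels, the processing notes name bcl2fastq 2.17.1.14, Partek 7.0 and the build GRCm38.p6; the aligner, counting, annotation and filters are not given in the sources used here. The authors quantile normalized the data and gave log2 values, with a blank for no signal. Columns were assigned to their population by name. Whether libraries came from separate cultures is not stated, so p-values measure only the spread between these libraries, which may be technical.

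Log2 fold changes are PDGFRα reporter+ minus PDGFRα reporter- means. The test, over genes valued in all 4 libraries, was limma 3.58.1 (R 4.3.3; eBayes with a variance trend, no block, two-sided, Benjamini-Hochberg over all genes, threshold 0.05), after a test on simulated data. With 2 libraries against 2, an exact permutation test of 1 gene cannot go below a p of 0.333, and none was used. The genes named are the 10 endothelial genes, *Pdgfra*, genes of the lists (those with the largest log2 fold changes and their defining genes), and the 5 genes nearest to *Cdh5* and to *Pecam1*; a few others in the closing observations were chosen after their values were seen. Genes and lists were chosen with earlier results of these data known. In addition, 12 alternative settings were tried as planned and 1 was added after seeing the data. Positions are those of GENCODE M21 on GRCm38. Summaries used Python 3.11.15 with pandas 2.3.3 and numpy 2.4.6, and plots matplotlib 3.10.9. From the marker lists, 1 gene is not reported here.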

Additional observations from a re-analysis of the deposited data

How the results depend on the processing

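*Cdh5*, *Pecam1* and *Emcn* were lower in PDGFRα reporter+ cells under each of the 12 alternatives that gave them a value. As their populations did not overlap, only the centering could have turned the sign, so this count does not test the direction. A filter at a mean log2 value of at least -2 removed all 3. It left 0 of the 5 remaining genes lower without overlap, beside 7.42% of the 12000 genes that passed it. With each library left out in turn, their log2 fold changes ran from -5.08 to -3.43, -3.62 to -2.75 and -4.48 to -2.40. Centering on the stromal genes gave -4.85, -3.78 and -4.04 with adjusted p-values of 0.00459, 0.0462 and 0.0284, called 12 genes in all, put 5 of 9 genes lower without overlap, beside 62.2% of all genes on that scale, and turned *Cd93* to -0.52 and *Vwf* to -0.51; the cause was not tested beyond the shift of all genes. With a library left out, 4 to 6 of 9 genes were lower without overlap, beside 25.8% to 32.5% of all genes, as fewer libraries were compared, and the lone library was assumed to vary like the others. The log2 fold changes of 6 genes then changed sign: *Cd93* ran from -0.29 to 0.44, *Egfl7* from -0.18 to 0.10, *Erg* from -1.99 to 1.20, *Fli1* from -0.40 to 0.32, *Tek* from -2.57 to 1.03 and *Vwf* from -0.47 to 0.65. *Tie1* was lower under the 5 alternatives that gave a value, with values between -0.13 with a pseudocount of 1 and -5.38 with blanks at the lowest value. Its only PDGFRα reporter+ value lay below both PDGFRα reporter- values, so none of these settings could have turned the sign.

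With the library number as a replicate block, limma called 29 genes at an adjusted p under 0.05, and 0 when the block was fitted without a variance trend (941 before adjustment). Adjusted p-values were 0.0642 for *Cdh5*, 0.0585 for *Pecam1* and 0.0642 for *Emcn* with the block, and 0.538, 0.463 and 0.463 without the trend. The block thus changed no adjusted call of the 9 endothelial genes tested, and *Tie1* was not tested. *Tek* had a standard error of 0.32 with the block, an unadjusted p of 0.0381 and an adjusted p of 0.725. Of the marker genes of other cells, *Lum* (adjusted p 0.0121), *Pf4* (0.0345) and *C1qb* (0.0437) passed with the block. The deviations of same-numbered libraries from their population's mean had a correlation of 0.681 across genes; that the numbers mark a shared preparation of cells is not stated. Since the depth is unknown, no counting error can be set beside values near the bottom of the scale.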

Other observations

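Beside *Cdh5*, *Emcn* and *Pecam1*, the most negative log2 fold changes of the table included genes of skeletal muscle and of endothelium, named here after their values were seen. *Myh1* (-4.68), *Myh3* (-3.57) and *Myl1* (-2.89) encode myosins of skeletal muscle. *Adgrf5* (-2.84), an adhesion receptor of endothelial and epithelial cells, was at -5.92 and -3.02 in PDGFRα reporter+ cells and -1.76 and -1.49 in PDGFRα reporter- cells. By pattern over 4 libraries, the gene nearest to *Emcn* was *Myl1*, at a distance of 0.71, followed by *Adgrf5* at 0.84 and by *Ngfr* (log2 fold change -2.90), the low-affinity neurotrophin receptor, at 0.97.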
